A study of Mus musculus with 118 samples.

Results

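The Sox genes of groups B, E and F were followed through the peak lists that define Polycomb binding in mouse embryonic stem cells (ESCs). The 10 members, out of 26180 annotated genes, were taken by name. They were Sox1, Sox2 and Sox3 (group B1), Sox14 and Sox21 (B2), Sox8, Sox9 and Sox10 (E), and Sox17 and Sox18 (F). The rule that names them uses no measured value, but it was set with earlier results of these data known. For each gene, the curated RefSeq transcription start site (TSS) with 2500 bp on either side, here called the promoter, and the gene body were compared with the RING1B, SUZ12 and PCGF2 peaks.

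The series asks what the catalytic activity of Polycomb repressive complex 1 (PRC1) contributes to Polycomb function, with calibrated ChIP-seq and other assays over 118 samples. The peaks used here were called in untreated cells (0 hr), with RING1B, SUZ12 and PCGF2 each in 3 PRC1CPM samples and SUZ12 also in 3 PRC1CKO samples. PRC1CPM cells (clone 41 on the E14 background) carry Rosa26::ERT2-Cre and the I50A/D53K substitutions in both copies of Ring1a. Both of their Ring1b alleles are built so that tamoxifen switches them from wild type to I53A/D56K. PRC1CKO cells (clone B9, also E14) are Ring1a-/- and Ring1b fl/fl with Rosa26::ERT2-Cre. Before tamoxifen, therefore, both lines kept wild type RING1B but neither had wild type RING1A, and each line was a single clone. The RING1B list also drew on RING1B data in PRC1CKO cells that were not analysed here.

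SOX proteins are transcription factors that bind DNA through an HMG box, and the groups are defined by sequence relatedness. Group B1 members act in neural progenitors, with Sox2 also a core pluripotency factor of ESCs, while group B2 members act in the developing nervous system. Group E works in the neural crest, glia, cartilage and testis, and group F in endoderm and blood vessels. Either RING1B or RING1A forms the catalytic core of PRC1 together with a PCGF protein, and this core ubiquitylates histone H2A. PCGF2 (MEL18) marks canonical PRC1, which reads H3K27me3 through CBX proteins, and SUZ12 is a core subunit of PRC2, the complex that writes H3K27me3.

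The TSS of each member is the reference point for the values that follow, so the 250 bp before it are shown for Sox2 and for the members with the widest RING1B peak of group B and the narrowest of group E. RefSeq promoter sequences on mm10 (GRCm38.p6) matched 5 of the 10 members, namely Sox1, Sox2, Sox8, Sox14 and Sox21, and none is printed for Sox3, Sox9, Sox10, Sox17 or Sox18. Each is written 5′ to 3′ on the strand of its gene with CpG dinucleotides in capitals. The Sox2 stretch is chr3:34649745-34649994 (plus strand), that of Sox1 is chr8:12395269-12395518 (plus strand) and that of Sox8 is chr17:25570687-25570936 (minus strand).
Sox2: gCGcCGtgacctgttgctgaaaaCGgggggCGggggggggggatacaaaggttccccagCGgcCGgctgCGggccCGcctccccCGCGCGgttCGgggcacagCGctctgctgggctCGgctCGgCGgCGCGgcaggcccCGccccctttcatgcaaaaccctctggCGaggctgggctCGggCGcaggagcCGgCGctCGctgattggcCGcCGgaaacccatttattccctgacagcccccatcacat
Sox1: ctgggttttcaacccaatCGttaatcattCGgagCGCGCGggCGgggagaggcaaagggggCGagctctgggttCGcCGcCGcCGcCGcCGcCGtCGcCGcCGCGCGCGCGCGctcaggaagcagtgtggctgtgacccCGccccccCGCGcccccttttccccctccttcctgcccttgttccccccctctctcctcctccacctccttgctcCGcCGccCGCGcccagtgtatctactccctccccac
Sox8: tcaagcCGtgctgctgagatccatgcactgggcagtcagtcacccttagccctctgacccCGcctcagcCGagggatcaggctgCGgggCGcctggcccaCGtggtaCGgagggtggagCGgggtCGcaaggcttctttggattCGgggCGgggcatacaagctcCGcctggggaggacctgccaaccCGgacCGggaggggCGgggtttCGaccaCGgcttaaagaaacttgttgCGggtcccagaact

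The capitals show how dense CpGs were directly before these start sites. Sox1 held 29 CpGs in its 250 bp, Sox2 27 and Sox8 18, with 23 at Sox14 and 17 at Sox21, against a median of 6 over the 32851 promoters of the same table. The GC box GGGCGG, counted on both strands, occurred 3 times at Sox1 and Sox14, 2 times at Sox2 and Sox8 and 0 times at Sox21, and 32.7% of all promoters held it. CCAAT occurred once each at Sox1, Sox2 and Sox14 (33.8% of promoters). Neither TATAAA (12.4%) nor the SOX core letters ACAAT (27.7%) were in any of the 5 windows, which says only that these letters are missing from these stretches.

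A RING1B peak lay at the promoter of all 10 members, where 53.2% of annotated genes had one. A SUZ12 peak lay at 9 of 10 (24.8% of genes) and a PCGF2 peak at the same 9 (13.5% of genes), so that 9 members carried all 3 lists (13.4% of genes). The exception was Sox2, which had RING1B alone (28.6% of genes), and 0 members lacked all 3 lists (46.5% of genes). Every one of these 28 peaks contained the TSS itself. A CpG-rich start site, which 9 of the 10 members had, was found at 11513 genes, and 88.8% of these had RING1B, 40.4% SUZ12 and 23% PCGF2. All 3 lists were present at 23% of them and RING1B alone at 48.4%. Overlap with the gene body in place of the promoter gave the same 9 members with all 3 lists, beside 14.1% of all genes. The lists give a start and an end for each peak but no height, depth or replicate value, so no difference between members could be set against replicate error, and where a list has no peak, weaker binding may still have been present. The cells were profiled as populations, so a peak present in all cells and one present in some of them cannot be told apart, and the ESC identity of the lines could not be checked against marker genes, since the lists hold no expression.

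**Figure D1:**
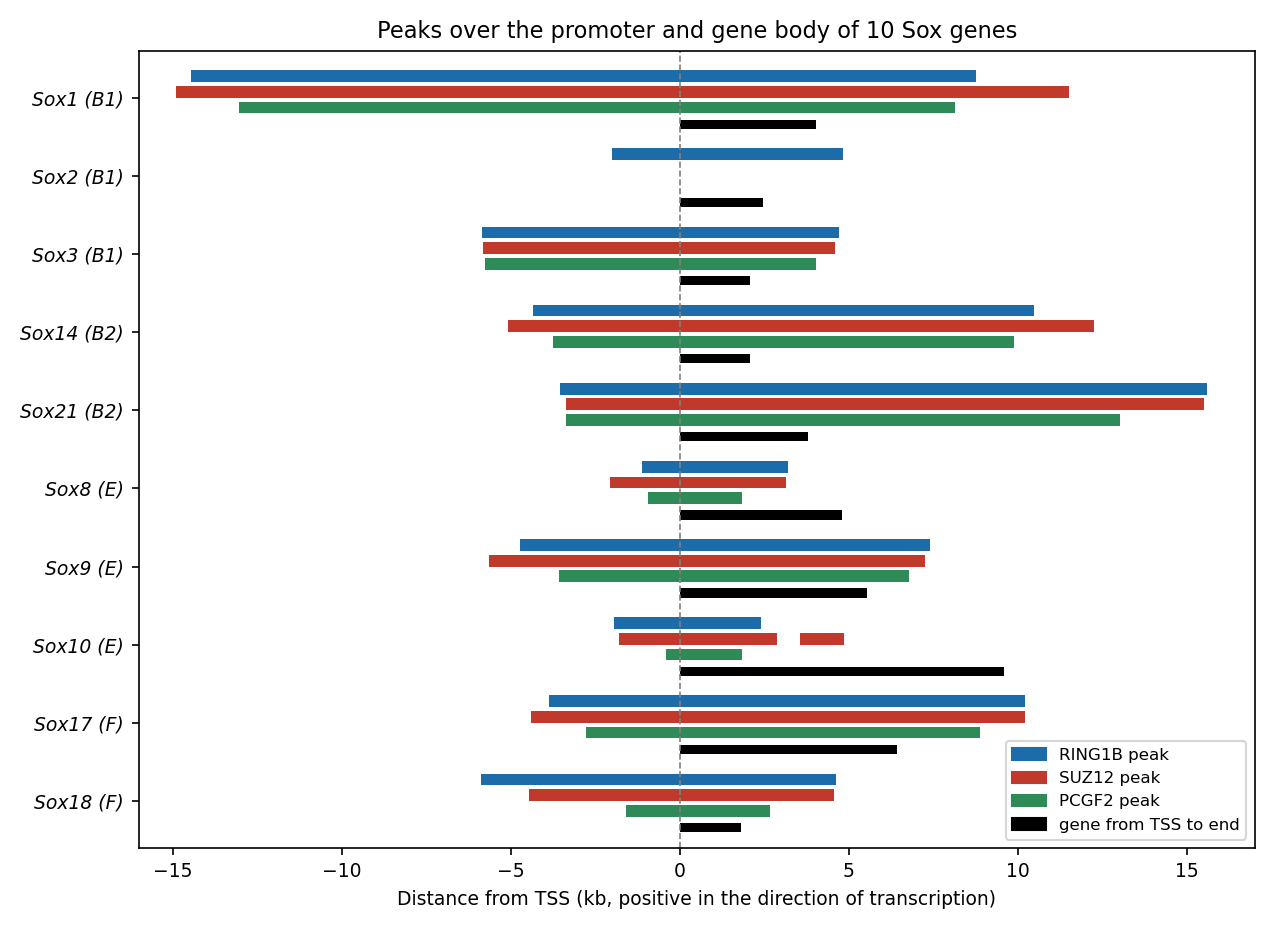
Position of the RING1B, SUZ12 and PCGF2 peaks at the 10 Sox genes, with distance from the TSS in kb along the strand of each gene on the horizontal axis and 1 line per gene and list. All 10 genes have a RING1B bar across the TSS, and Sox2 alone has no SUZ12 or PCGF2 bar there.

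Among the group B1 genes, Sox1, an early neural plate factor, had by far the longest peaks. Sox1 is a single-exon gene (Gene ID 20664, chr8:12395519-12399555, plus strand), and its RING1B peak ran from 12381078 to 12404284, 23207 bp and the 60th widest of 18643. The SUZ12 peak measured 26402 bp, from 12380621 to 12407022, and the PCGF2 peak 21180 bp, from 12382476 to 12403655. Most of this domain lay before the gene, with 14441 bp of the RING1B peak upstream of the TSS and 8765 bp downstream. Sox3, an X-linked factor of the neural and pituitary primordia (Gene ID 20675, 1 exon, chrX:60891366-60893430, minus strand), had 3 peaks of nearly one length. They measured 10552 bp for RING1B, 10393 bp for SUZ12 and 9812 bp for PCGF2, and the gene lay wholly inside all of them. The nearest other RING1B peak was 338434 bp away, so the Sox3 domain stood alone in its neighbourhood. Sox2 (Gene ID 20674, 1 exon, chr3:34649995-34652461, plus strand) had a RING1B peak of 6852 bp, from 34647982 to 34654833, with 2013 bp before the TSS and 4838 bp after it. It was the narrowest RING1B peak of group B, although it covered the whole gene.

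Both group B2 genes, Sox14 and Sox21, are expressed in the developing brain and spinal cord, and their peaks extended chiefly downstream. Sox14 (Gene ID 20669, 1 exon, chr9:99874106-99876170, minus strand) had a RING1B peak of 14823 bp, a SUZ12 peak of 17317 bp and a PCGF2 peak of 13623 bp. Of the RING1B peak, 10477 bp lay downstream of the TSS and 4345 bp upstream. Sox21 (Gene ID 223227, 1 exon, chr14:118233233-118237030, minus strand) had a RING1B peak of 19108 bp, a SUZ12 peak of 18875 bp and a PCGF2 peak of 16386 bp. Its RING1B peak had the longest downstream reach of the members, 15576 bp past the TSS, and only 18.5% of it lay upstream. No other peak of any of the 3 lists lay within 50 kb of the Sox14 TSS, and the same held for Sox3, Sox21 and Sox17.

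Group E was split between Sox9 on one side and Sox8 and Sox10 on the other. Sox9, a regulator of cartilage and testis formation (Gene ID 20682, 3 exons, chr11:112782210-112787757, plus strand), had peaks of 12136 bp for RING1B, 12886 bp for SUZ12 and 10363 bp for PCGF2. Sox8, which overlaps Sox9 and Sox10 in its roles (Gene ID 20681, 3 exons, chr17:25565893-25570686, minus strand), had peaks of 4325 bp, 5181 bp and 2796 bp in the same order. Sox10, which specifies neural crest derivatives and glia (Gene ID 20665, 4 exons, chr15:79154913-79164490, minus strand), had peaks of 4328 bp, 4693 bp and 2265 bp. The RING1B and SUZ12 peaks of Sox8 and Sox10 were thus the shortest of the members, as were their PCGF2 peaks. Sox10 was also the member with a second SUZ12 peak over its body, 1286 bp long (chr15:79159638-79160923) and 683 bp from the first.

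In group F, Sox17, a determinant of definitive endoderm (Gene ID 20671, chr1:4490928-4497426, minus strand, curated TSS at 4497354), had peaks of 14083 bp for RING1B, 14619 bp for SUZ12 and 11636 bp for PCGF2. Its 5 curated transcripts have 3 to 5 exons and a common TSS. Sox18, a factor of blood and lymph vessel endothelium (Gene ID 20672, 2 exons, chr2:181669837-181671640, minus strand), had peaks of 10519 bp, 9004 bp and 4247 bp. The RING1B peaks of the pair differed by a smaller factor than their PCGF2 peaks. Sox18 had 4 other RING1B peaks within 50 kb of its TSS, the nearest 1300 bp away, whereas Sox17 had 0.

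The member peaks were long for their lists. RING1B width had a median of 11344 bp over the 10 members (4325 to 23207 bp), against 1810 bp over all genes with a RING1B promoter peak and 4917.5 bp over the 3508 genes with all 3 lists. SUZ12 width had a median of 12886 bp over 9 members (4693 to 26402 bp), against 5394 bp over the same 3508 genes. PCGF2 width had a median of 10363 bp (2265 to 21180 bp), against 2914 bp. Peaks of 10 kb or more were present at 7 of 10 members for RING1B, 6 of 9 for SUZ12 and 5 of 9 for PCGF2, beside 16.6%, 17.4% and 11% of the genes with all 3 lists. The median RING1B width was 14823 bp in group B, 4328 bp in group E and 12301 bp in group F, but the ranges of all 3 groups overlapped, since Sox2 (6852 bp) lay below Sox9 (12136 bp) and Sox18 (10519 bp).

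**Figure D2:**
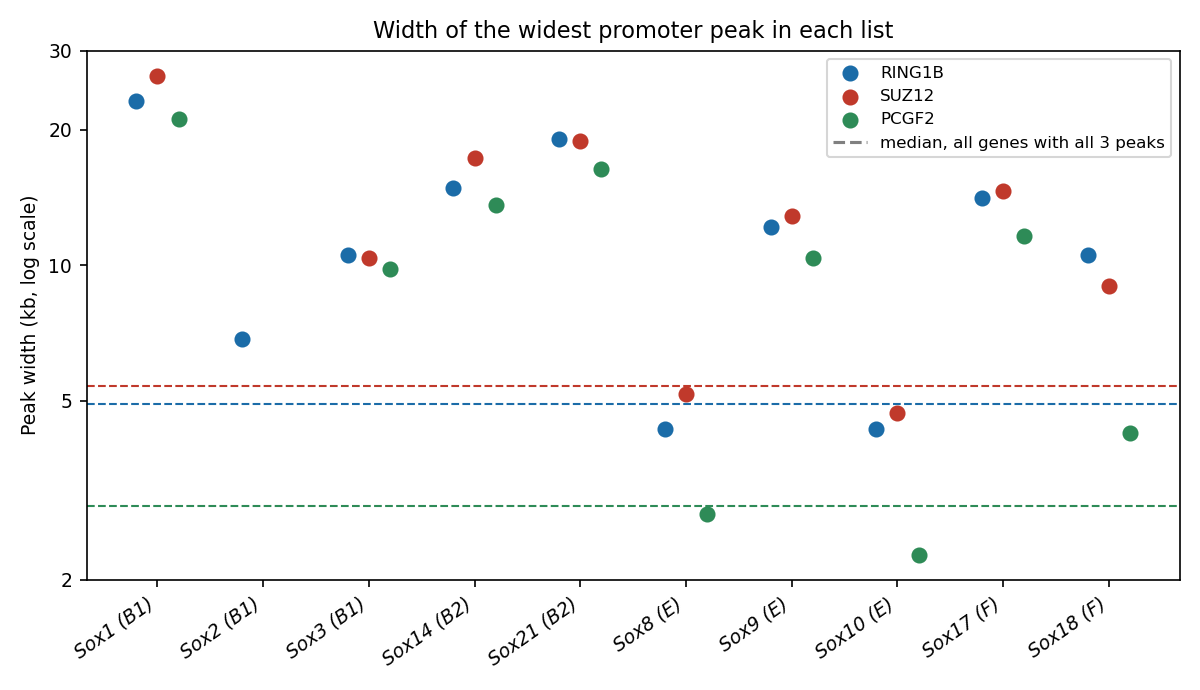
Width in kb, on a log axis, of the promoter peak of each Sox gene in each list, with 1 point per gene and list and the median over all genes with all 3 lists for comparison. Sox1 is the widest in every list (23207, 26402 and 21180 bp), while Sox8 and Sox10 lie lowest among the genes with all 3 lists.

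The 3 lists were then compared edge by edge. PCGF2 lay inside the RING1B peak at 9 of 9 members, as it did at 93.6% of the genes with all 3 lists. SUZ12 was wider than RING1B at 6 of 9, the same share as in the genes with all 3 lists (66.7%), and lay wholly inside the RING1B peak at 3 of 9, Sox3, Sox21 and Sox18 (17.2% of the genes with all 3 lists). The gap between a SUZ12 edge and the RING1B edge had a median size of 310.5 bp over the 18 edges (14 to 2738 bp), and that between a PCGF2 edge and the RING1B edge 887.5 bp (71 to 4309 bp).

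Sox1 and Sox14 showed the farthest SUZ12 reach, 2738 bp and 1757 bp past the downstream edge of the promoter RING1B peak. Another RING1B peak lay 970 bp from that of Sox1, so the reach at Sox1 depends on where 1 peak is called to end. The part of this in the reach was not tested. At Sox8 and Sox9 SUZ12 instead passed the upstream edge, by 942 bp and 914 bp, and fell short of the downstream one. At Sox18, by contrast, the SUZ12 peak ended 1435 bp and the PCGF2 peak 4309 bp inside the upstream RING1B edge. The PCGF2 peak of Sox18 was 0.404 of the RING1B width, the lowest ratio of the members, where the median was 0.854 and that of the genes with all 3 lists 0.640. The highest ratio was 0.930, at Sox3. The lists were called by different rules, with RING1B and SUZ12 on merged replicates and PCGF2 on each replicate, and the part of this in the widths was not tested.

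**Figure D3:**
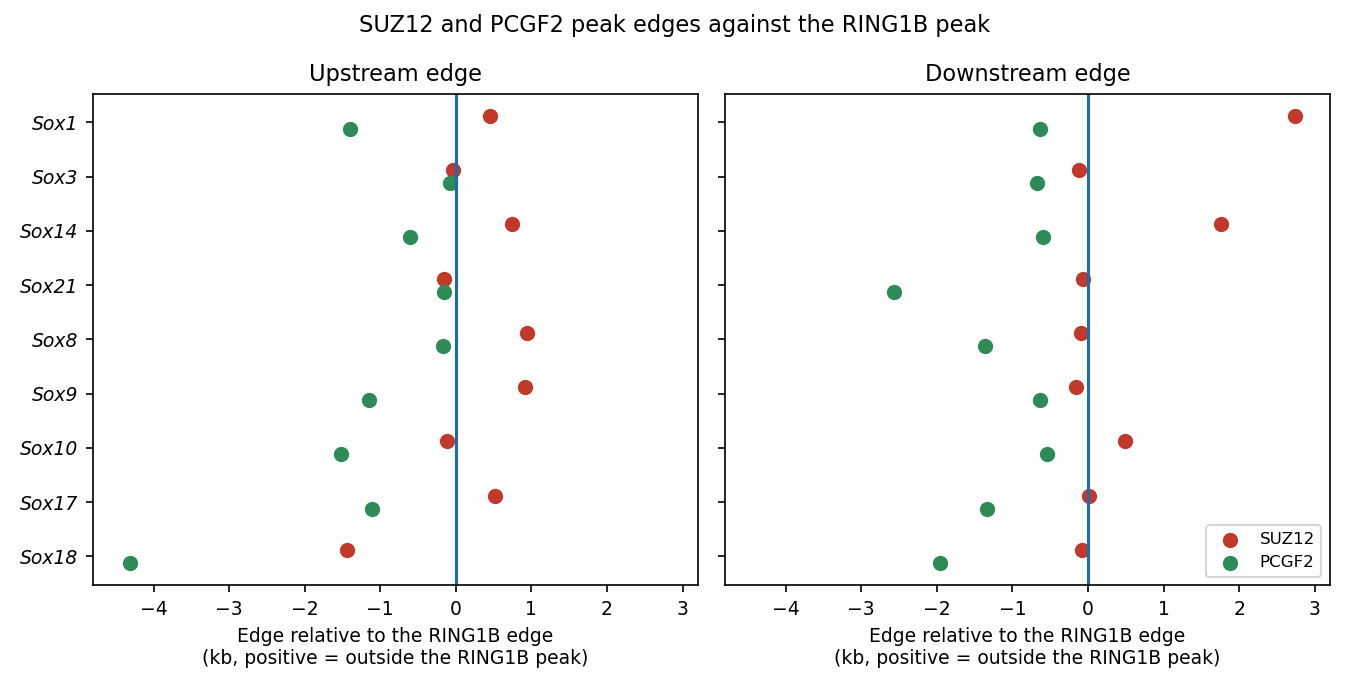
Distance in kb of the SUZ12 and PCGF2 peak edges from the RING1B edge (vertical line at 0) on the upstream and downstream sides of the 9 Sox genes with all 3 lists, positive outside the RING1B peak. Every PCGF2 point lies at negative values, and the SUZ12 points of Sox1 and Sox14 reach farthest out on the downstream side. Other RING1B peaks nearby, such as the one 970 bp from the Sox1 peak, are not drawn.

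The peaks also covered the genes themselves. RING1B spanned the whole body at 8 of 10 members, SUZ12 at 7 and PCGF2 at 7. Among the 1006 genes with all 3 lists that were no longer than the longest member (9578 bp, Sox10), these shares were 52.9%, 51.3% and 37.7%. Below that limit gene length was not matched, and the part of gene length and peak length in these shares was not tested. Sox2, counted among the 8 for RING1B, is outside that set because it had no SUZ12 or PCGF2 peak at its promoter or over its body. The 2 members not spanned by RING1B were both from group E. At Sox8 RING1B covered 67.0% of the body, SUZ12 65.2% and PCGF2 38.6%. At Sox10 the shares were 25.0%, 43.5% and 19.3%, and 30.5% of its coding bases lay under each list. The peak at Sox10 thus sat over the 5′ part of the gene. The single-exon genes other than Sox2 were covered end to end by every list, but so were the multi-exon genes Sox9, Sox17 and Sox18.

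Several of the peaks held the start of a long non-coding RNA (lncRNA) as well. A curated lncRNA TSS lay inside the RING1B peak at 5 of 10 members, beside 10.7% of the 3038 protein-coding genes with all 3 lists. At Sox1 it was Sox1ot, transcribed in the same direction from 9748 bp upstream, and its TSS was inside the peaks of all 3 lists. At Sox3 (Gm38438, 223 bp between start sites), Sox8 (Cerox1, 125 bp) and Sox21 (Gm4675, 798 bp) the lncRNA ran in the opposite direction, and again its TSS was under all 3 lists. At Sox10 (Gm10863, 1576 bp, opposite direction) it was inside the RING1B and SUZ12 peaks but not the PCGF2 peak. Without strand or height in the lists, a peak cannot be assigned to one of 2 genes that it covers. The comparison above is not fully matched, since the 10 members include Sox2, which lacks all 3 lists together and was not among the 5. Member RING1B peaks were also longer, with a median of 11344 bp against 4917.5 bp over all genes with all 3 lists. The part of peak length in the lncRNA count was not tested.

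Although SUZ12 and PCGF2 had 0 peaks over the promoter and body of Sox2, both had peaks nearby. A RING1B peak of 4888 bp began 10614 bp and ended 5727 bp before the Sox2 TSS (chr3:34639381-34644268). It held a SUZ12 peak of 4411 bp (chr3:34639706-34644116) and a PCGF2 peak of 3038 bp (chr3:34639759-34642796), so the site upstream carried all 3 lists. On the other side, a RING1B peak of 6355 bp (chr3:34660356-34666710) held a SUZ12 peak of 2947 bp (chr3:34661660-34664606) that began 11665 bp after the TSS, and no PCGF2 peak. None of these flanking peaks contained a TSS, and the Sox2 promoter lay between 2 SUZ12 peaks. Of the 7498 genes with RING1B alone at the promoter, 12.1% had SUZ12 within 15 kb on at least 1 side and 0.84% on both sides, a window chosen after the peaks at Sox2 were seen. The RING1B peak at Sox2 was itself long for such genes, whose median was 1232 bp, and 0.427% of them, Sox2 among them, had one as wide.

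**Figure D4:**
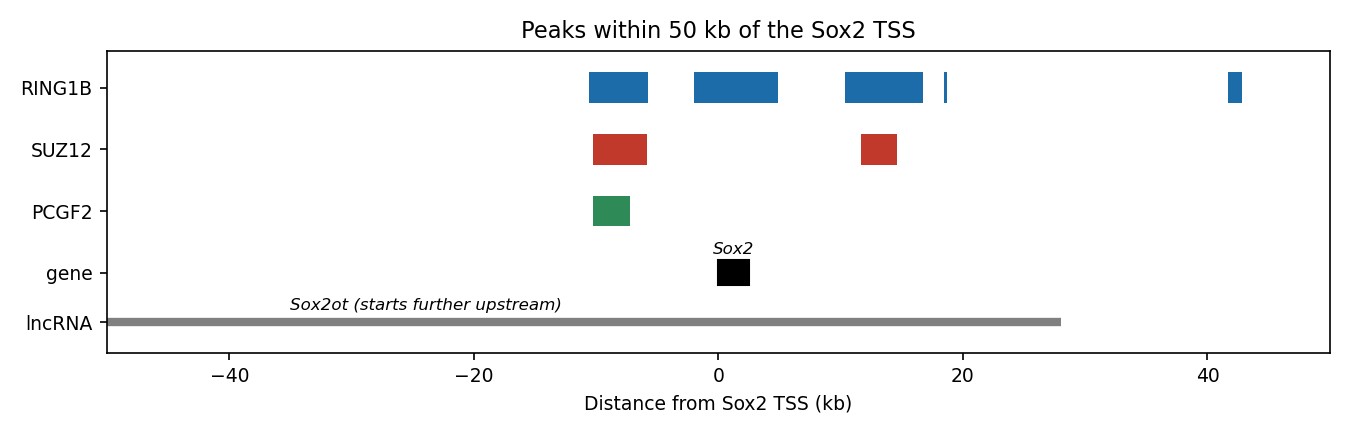
RING1B, SUZ12 and PCGF2 peaks around Sox2, with distance from the Sox2 TSS in kb on the horizontal axis and 1 line per list. RING1B (6852 bp) alone covers the gene, and SUZ12 lies on both sides of it, 4411 bp long upstream and 2947 bp long downstream.

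The whole interval lies within Sox2ot, an lncRNA gene of 117613 bp (chr3:34560381-34677993, plus strand, 5 exons) that surrounds Sox2 on the same strand. The curated Sox2ot TSS was 78999 bp from the nearest RING1B peak and 79324 bp from the nearest SUZ12 peak. The middle 250 bp of the upstream PCGF2 peak (chr3:34641153-34641402) and of the downstream SUZ12 peak (chr3:34663008-34663257) are shown so that the flanking sites can be read against the Sox2 promoter printed above. Neither stretch overlaps an annotated exon, and both are given on the plus strand of mm10 with CpGs in capitals.
Upstream site: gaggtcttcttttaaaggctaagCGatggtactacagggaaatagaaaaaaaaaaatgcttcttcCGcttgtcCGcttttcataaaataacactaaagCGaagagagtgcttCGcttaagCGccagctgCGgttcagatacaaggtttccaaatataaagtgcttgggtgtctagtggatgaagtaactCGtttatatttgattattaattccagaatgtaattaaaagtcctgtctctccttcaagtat
Downstream site: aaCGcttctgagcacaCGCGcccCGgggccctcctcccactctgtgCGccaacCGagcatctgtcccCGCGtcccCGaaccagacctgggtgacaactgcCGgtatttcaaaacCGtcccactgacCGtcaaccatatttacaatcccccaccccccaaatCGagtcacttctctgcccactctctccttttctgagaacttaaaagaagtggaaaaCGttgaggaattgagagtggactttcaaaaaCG

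The upstream stretch had 8 CpGs and a GC content of 37.6%, and the downstream stretch 15 CpGs and 54.4%, compared with 27 CpGs and 72% in the Sox2 promoter. Over the full RING1B peaks, CpG density was 32.1 per kb at the upstream site, 35.6 per kb at the downstream site and 46.8 per kb at Sox2. By whole RING1B peaks, the promoter with RING1B alone was therefore the most CpG-dense of these 3 sites. Its peak was also the most CpG-dense of all 10 members. The shorter SUZ12 peak within the downstream site held 48.5 CpGs per kb, slightly more than the Sox2 RING1B peak. The 250 bp stretches are not placed alike, since the flanking ones are peak middles and the Sox2 one lies directly before a TSS.

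CpG content was next measured across the members, as the ratio of observed CpGs to the number given by base composition. In the promoter window the ratio had a median of 0.595 over the 10 members (0.379 to 0.827), against 0.333 over all genes and 0.489 over those with all 3 lists. It was highest at Sox1 (0.827), Sox2 (0.795), Sox21 (0.795) and Sox3 (0.766), all of group B, while Sox14, also of group B, had 0.510. Group E ranged from 0.379 at Sox10 to 0.679 at Sox9, and group F had 0.409 at Sox17 and 0.480 at Sox18. The TSS lay in a predicted CpG island at 9 of 10 members, with Sox10 as the exception. The share of all genes with a TSS in such an island was not computed, so this count has no comparison. Around the Sox10 TSS (500 bp on either side) the ratio was 0.325, and 44.0% of all genes, but not Sox10, were CpG-rich in this window. Islands were searched only inside the RING1B peaks. Within that of Sox10, the nearest island, 906 bp long, began 372 bp downstream of the TSS.

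Within the RING1B peaks, CpG density had a median of 34.8 per kb (22.0 at Sox18 to 46.8 at Sox2), close to the 34.4 per kb over the 2943 RING1B peaks at genes with all 3 lists. Islands made up 40.4% of the member peaks at the median, from 17.8% at Sox18 to 57.4% at Sox2, against 35.8%. A long peak was not always a CpG-dense one, since the Sox17 peak (14083 bp) had 23.7 CpGs per kb and the Sox8 peak (4325 bp) had 42.1. At all 10 members the 5 kb on each side of the RING1B peak held fewer CpGs per kb than the peak, although at Sox18 the upstream flank (20.6 per kb) was near the peak itself. The same share over all RING1B peaks was not computed, so this count cannot be read as a trait of the members. The flanks were not all free of RING1B, since another peak lay 970 bp away at Sox1, 1300 bp at Sox18 and 3713 bp at Sox2.

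Where the islands lay within the RING1B peaks also differed between the members. Sox3 had the longest island, 3510 bp across its TSS, followed by Sox21 with 3214 bp and Sox1 with 2899 bp. The Sox1 peak held 11 islands, among them one of 2274 bp that spanned the Sox1ot TSS. At Sox17 the longest island (1393 bp) began 4368 bp downstream of the TSS, and at Sox14 the longest (1462 bp) began 6080 bp downstream. At both genes most of the searched peak lay downstream, so the side of the island is not independent of the peak.

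**Figure D5:**
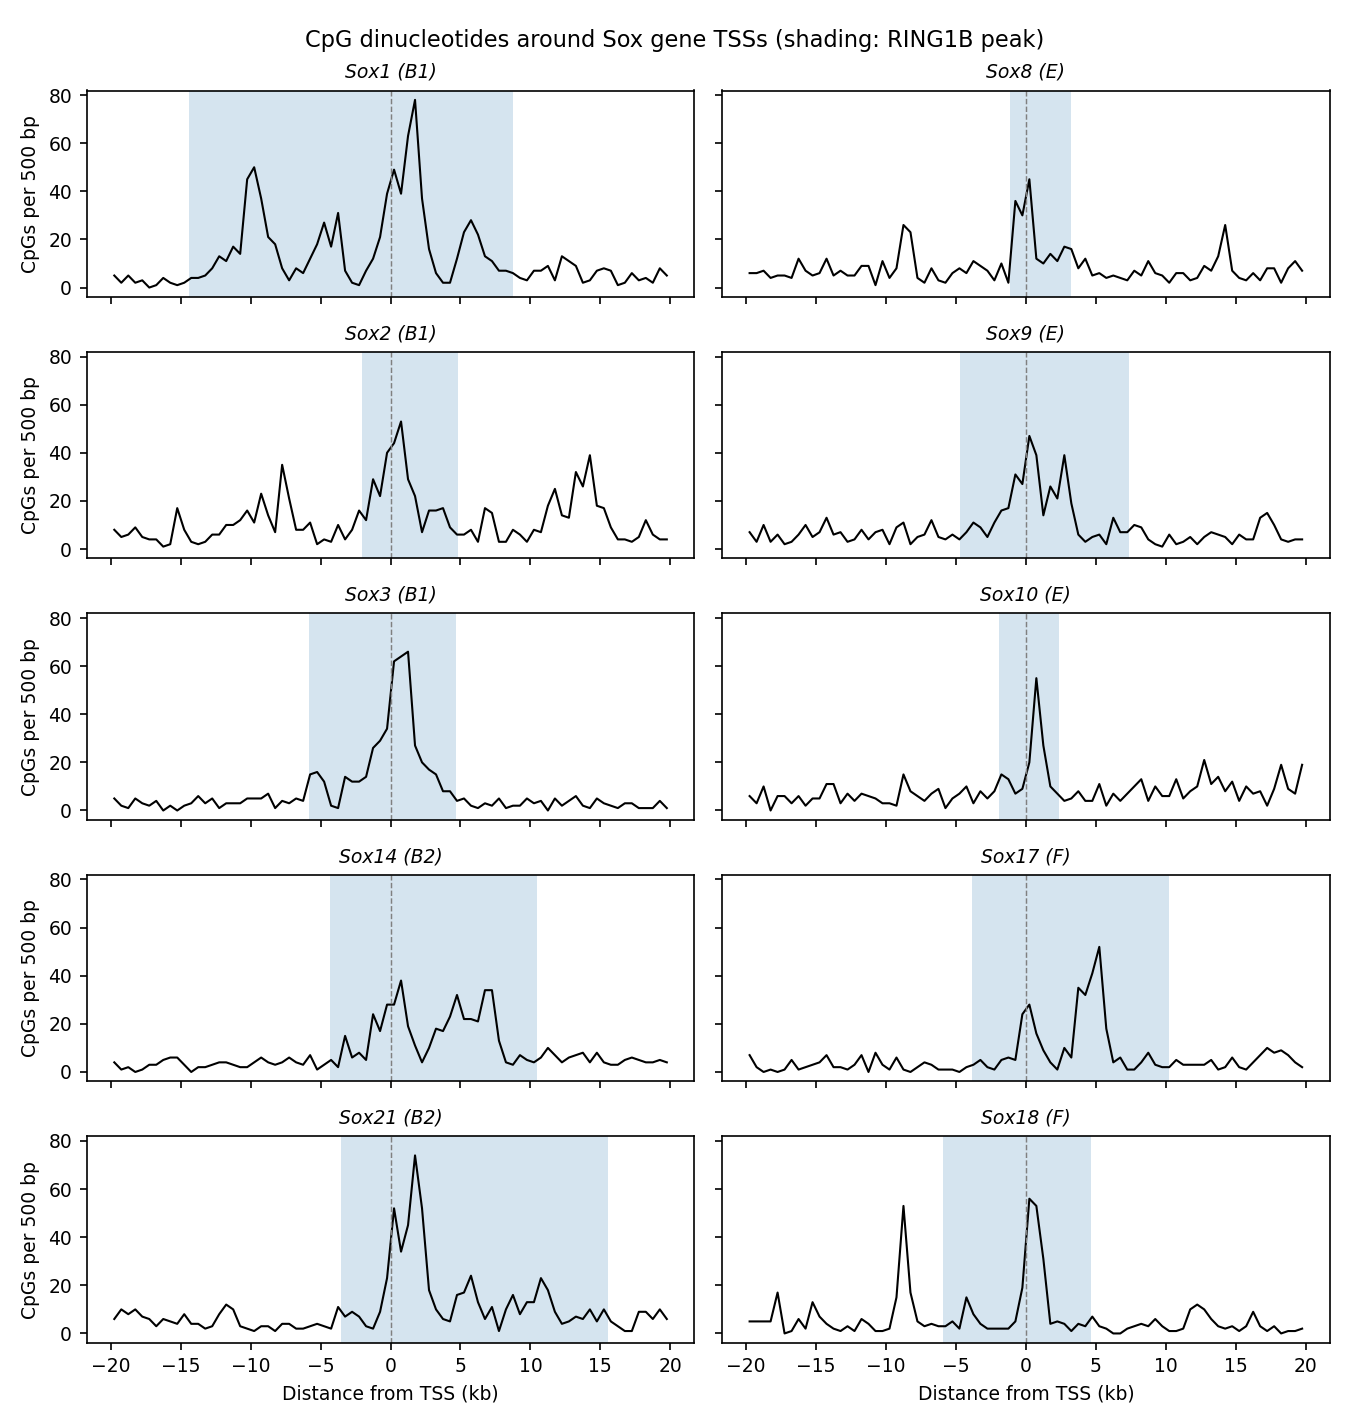
Number of CpGs per 500 bp bin along 20 kb on each side of the TSS of the 10 Sox genes, 1 panel per gene, with the RING1B peak shaded. The CpG maximum falls within 2 kb of the TSS except at Sox17, and Sox1 has a further maximum about 10 kb upstream within its peak. Some CpG-dense bins lie outside the shaded peak. Sox18 has 53 CpGs in the bin at -8750 bp against its maximum of 56, and Sox2 has 39 at 14250 bp against 53.

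Other developmental regulators in the same lists give a scale for these values. Of the 10 other Sox genes, 6 had all 3 lists at the promoter, among them Sox7, the remaining group F gene, with peaks of 7237 bp for RING1B, 8513 bp for SUZ12 and 4451 bp for PCGF2. Sox12 (3796 bp) and Sox15 (1653 bp) had RING1B alone, as Sox2 did, and the testis-determining gene Sry had no peak. Sox5 had none at its curated start sites but RING1B (3441 bp), SUZ12 (5476 bp) and PCGF2 (2895 bp) over its body. With predicted start sites included, Sox5 had all 3 lists at a promoter, and the count rose to 7 of the 10 other Sox genes. The median RING1B width of the 8 other Sox genes with such a peak was 5156.5 bp.

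The Pax genes, a family of developmental transcription factors, had all 3 lists at 8 of 9 promoters and a median RING1B width of 25270 bp (5748 to 36873 bp), so most of them were wider than any Sox gene. Pax4 alone departed, with a SUZ12 peak of 305 bp only. Of 5 other pluripotency genes, Klf4 and Esrrb had all 3 lists. Pou5f1, which encodes the SOX2 partner OCT4, had RING1B alone (3631 bp), like Sox2 but shorter, and Nanog and Zfp42 had no promoter peak of any list.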

How the data were processed

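Calibrated ChIP-seq reads had been aligned by the authors to joined mouse (mm10) and human (hg19) genomes with Bowtie 2, keeping unique reads and removing duplicates with Sambamba. Peaks had been called with MACS2 in broad mode against Input, without blacklisted regions. RING1B and SUZ12 peaks were called on merged replicates of untreated PRC1CPM and PRC1CKO cells and kept if found in both lines, RING1B peaks also only if lost in PRC1CKO after tamoxifen, while PCGF2 peaks were called per PRC1CPM replicate and kept if in all. The deposited lists hold 18643, 7438 and 3680 peaks as chromosome, start and end (bp on mm10), with no score or read count, so the depth behind a peak cannot be read from them and no test was run.

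Peaks were overlapped (at least 1 bp) with curated RefSeq start sites of GRCm38.p6 with 2500 bp on either side and with gene bodies, in Python 3.11.15 with NumPy 2.4.6, and the code was tested on simulated data. The widest overlapping peak was reported. CpG islands were stretches of 200 bp windows with a GC content of at least 50% and an observed to expected ratio of at least 0.6. They were searched only inside RING1B peaks and were cut at the peak edges, so islands outside peaks were not found. A TSS was CpG-rich if the 1 kb around it met both limits. The GC box GGGCGG, the box CCAAT, the TATA box TATAAA and the SOX core ACAAT were searched on both strands, overlaps included. CCAAT and ACAAT share the letters CAAT but cannot match at the same position. All 10 members were named, as were other Sox genes without all 3 lists, Sox7, Pax and pluripotency genes that departed from most of their list, and genes starting inside a member peak. Sequences were to be shown for Sox2 and for the widest and narrowest RING1B-marked member of each group, and of these Sox2, Sox1 and Sox8 were in the promoter table. The Sox2 flanking sites were chosen after their peaks were seen. Members and lists were chosen with earlier results of these data known. Alternatives were other promoter windows, overlap and width minimums, merging of peaks within 1 kb, other start sites and other CpG measures. Protein sequences were not used here.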

Additional observations from a re-analysis of the deposited data

How the results depend on the processing

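The 12 counts and medians over the Sox genes were recomputed under the alternatives that applied to each, which gave 81 values in all. Of these, 77 were planned and 4 came from promoters of 10000 bp on either side, a setting chosen after seeing the data and applied to the 4 promoter counts. All but 1 of the 81 values stayed within 1.5 times the count or within the interval of the median. The exception was a change of unit, GC content in place of the CpG ratio, which gave a median of 55.0% (47.3% over all genes). These checks were weak, because every promoter peak of the members contained the TSS and the narrowest was 2265 bp long. Narrower windows, the 500 bp overlap and the 1 kb width minimum could therefore not remove a promoter peak. The intervals ran over the member genes, so they describe spread among genes and not replicate error. Merging peaks within 1 kb moved the median SUZ12 minus RING1B width from 536 to 550 bp and the PCGF2 minus SUZ12 width from -2523 to -2983 bp. The median CpG ratio was 0.753 within 500 bp of the TSS. With promoters of 10000 bp all 10 members had all 3 lists, because Sox2 then reached its upstream peaks. No paired analysis was possible because each list is 1 set of intervals without replicate values, which also left no replicate to omit. The lists give neither height nor depth, so a weak and a strong peak count alike.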
